A study of Mus musculus with 7 samples.

Results

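Thrsp encodes thyroid hormone responsive protein (Spot 14), a small protein found mainly in tissues that make fatty acids from sugar. It was chosen here because its RNA was lower in mouse hearts after transfer of human CD4+ T cells. It was set beside 9 genes of adipocytes and of lipid synthesis, Plin1, Fabp4, Cidec, Pparg, Lep, Dgat2, Elovl6, Mlxipl and Pck1, to ask whether they were lower with it. These 10 genes were taken by symbol from the 20343 genes of the analysed count table, and 10 of 10 were found there. RNA was sequenced from the apical part of the heart of 7 NSG-DR1 mice (strain label NSG-DRB1*0101). The 4 control mice were untreated, and the 3 transferred mice were sampled 6 weeks after receiving human CD4+ T cells. NSG mice lack lymphocytes of their own, and every heart in both groups came from this background, so the comparison is between hearts without and with human T cells and not with an immunocompetent mouse. The age and sex of the mice are not given in the labels used here. Of the 10 genes, 6 passed the filter on low counts and were among the 7667 genes tested, and 4 did not.

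In lipogenic tissue, the transcription factors Mlxipl (ChREBP, the carbohydrate response factor) and Pparg switch on enzymes that build and store fat, and Thrsp is a known target of carbohydrate and thyroid hormone signals. Elovl6 lengthens new fatty acids, and Dgat2 adds the last fatty acid that turns diacylglycerol into triglyceride. Plin1 and Cidec coat and enlarge the single large droplet of the adipocyte, Lep is the adipocyte hormone leptin, and Fabp4 is a fatty acid carrier that is abundant both in adipocytes and in capillary endothelium. Pck1 supplies glycerol for triglyceride in adipocytes and glucose in liver. Heart muscle mostly burns fatty acids and makes few of them, while fat lies on its outer surface, so a sample of the heart wall can hold some adipocytes.

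The column totals lay between 16402179 and 25190560 counts in control hearts and between 19334439 and 20974322 counts in transferred hearts. They sum genes of chromosomes 1 to 7 and the start of chromosome 8, so whole libraries were deeper. A count of 3 in a heart corresponded to between 0.119 and 0.183 CPM (counts scaled to library size) on the plain column totals, a limit for counting error only. All other CPM values were scaled by the TMM method. Cardiomyocyte genes dominated all 7 hearts, with 8 markers summing to 76051 to 83740 CPM in control hearts and 76410 to 89073 CPM in transferred hearts. Of 7667 genes tested with edgeR's quasi-likelihood test, 18 passed an adjusted p of 0.05, which is 0.235% of them, 8 lower and 10 higher in transferred hearts. That count was 0 without control heart 1, 2 or 4 or transferred heart 2, 1 without control heart 3 and 140 without transferred heart 3. It was 0 with limma-voom (907 genes at an unadjusted p under 0.05) and 0 with the identifier prefix as a covariate (973 genes). Of 8 macrophage markers, 2 passed as higher and 6 were higher without overlap. Their sum was 455 to 682 CPM in control hearts and 793 to 1168 CPM in transferred hearts, and its part in the Thrsp difference was not tested. In bulk tissue, fewer cells of a type and less RNA per cell cannot be told apart.

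The window just upstream of Thrsp is shown because Thrsp was the only member whose groups lay apart. Promoter windows from RefSeq (GRCm38.p6) matched 8 of the 10 genes, with no entry for Fabp4 or Dgat2. The Thrsp window is the 250 bases before its annotated start, chr7:97417551-97417800 on the minus strand. Capitals mark the letters CCAAT or their reverse complement ATTGG.
Thrsp promoter: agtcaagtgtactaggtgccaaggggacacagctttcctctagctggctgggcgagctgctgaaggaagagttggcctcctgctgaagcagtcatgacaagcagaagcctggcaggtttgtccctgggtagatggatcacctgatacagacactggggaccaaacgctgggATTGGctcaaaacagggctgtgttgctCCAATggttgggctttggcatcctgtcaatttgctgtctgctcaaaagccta
The 2 matches begin 79 and 52 bases before the start, in opposite orientations. CCAAT on either strand was present in 33.8% of 32851 windows of this length, so its presence is common. TATAAA (12.4% of windows), CACGTG (6.02%) and the nuclear receptor motif AGGTCA (14.0%) had no match in the Thrsp window on either strand, which says only that these letters are not in these 250 bases. Of 12 windows belonging to the 8 matched members, 4 held CCAAT, 3 held AGGTCA, 1 held TATAAA and 1, upstream of Mlxipl, held CACGTG. These matches are a description of sequence and not of factor binding.

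Thrsp lies on chromosome 7 (GRCm38.p6, 97412933 to 97417550, minus strand), and its counts were taken over 1102 exonic bases. No other gene of the table overlaps it. Its level was 119, 104, 80.2 and 124 CPM in control hearts 1 to 4, and 55.1, 45.4 and 47.2 CPM in transferred hearts 1 to 3. Every transferred heart lay below every control heart, and control heart 3 was the lowest control. The group means were 107 ± 19.7 CPM (SD, n = 4) and 49.2 ± 5.13 CPM (SD, n = 3). Relative to the control mean, the transferred hearts stood at 51.6%, 42.5% and 44.3%. The fitted log2 fold change was -1.11, with a standard error (SE) of 0.15. Thrsp was chosen by this contrast, so the value is a description, and its place among the 8 genes called lower (0.104% of tested genes) carries no further weight. The shares over all genes were 0.13% called higher, 5.22% lower without overlap and 5.99% higher without overlap. With each heart left out in turn the fold change lay between -1.23 and -1.04. The call was lost without control heart 1, 2 or 4 or transferred heart 2. It was also lost with limma-voom, with the letter prefix of the animal identifiers as a covariate, and in the 5 hearts without that prefix.

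**Figure D1:**
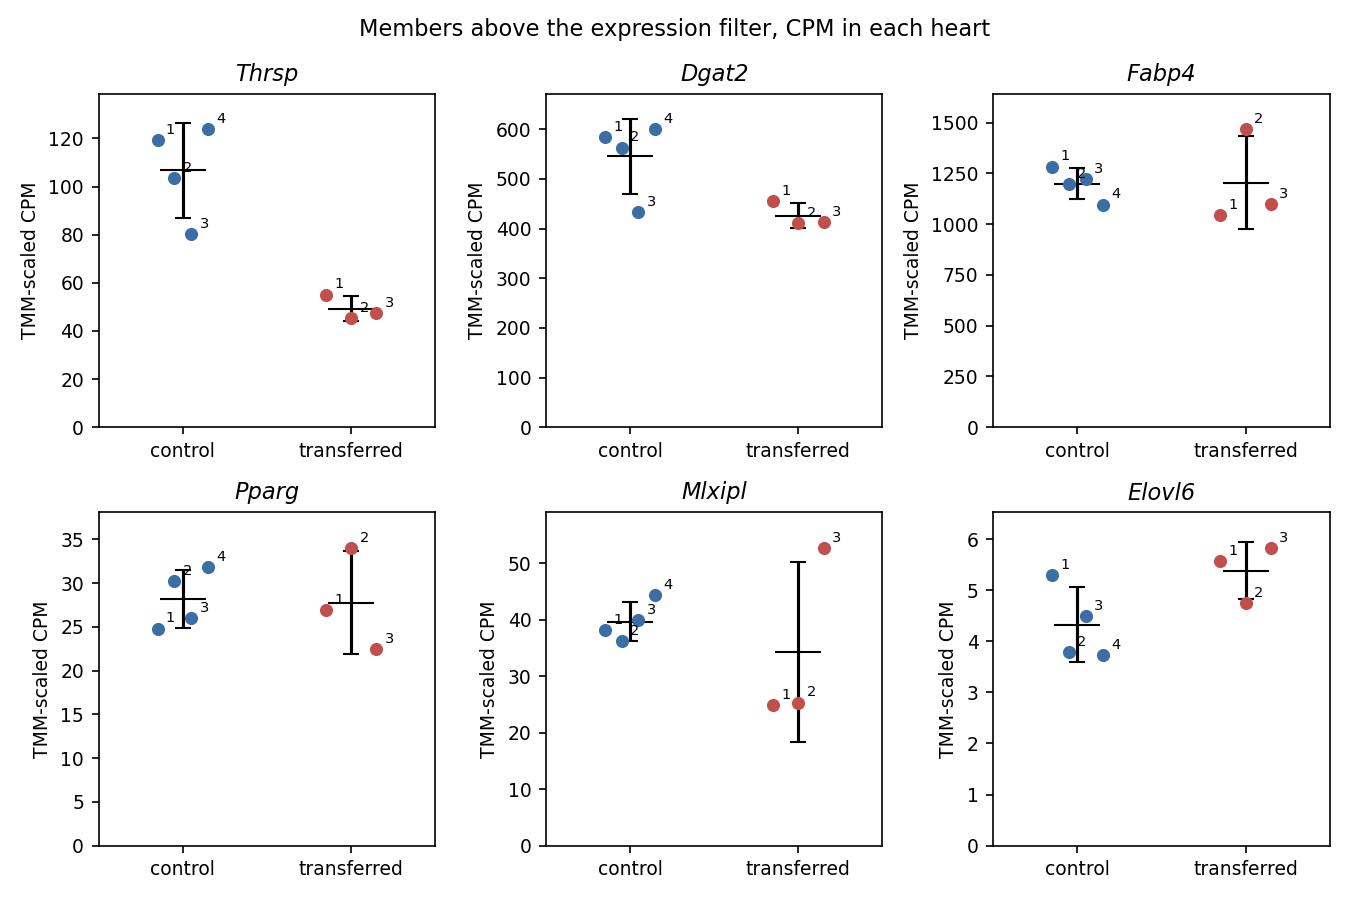
TMM-scaled CPM (y axis, linear, from 0) of the 6 members above the expression filter in 4 control and 3 transferred hearts; numbers are hearts, horizontal lines are means and bars 1 SD. Thrsp separates into 80.2 to 124 CPM and 45.4 to 55.1 CPM, while the groups overlap in the other 5 panels.

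The defining adipocyte genes were close to absent in both groups. Plin1 (perilipin 1, chromosome 7, 79721164 to 79732904) had 0, 2, 0 and 0 counts in control hearts and 4, 5 and 0 counts in transferred hearts. Lep (chromosome 6, 29060221 to 29073876) had 2 counts over all 7 hearts, 1 in control heart 3 and 1 in transferred heart 1. Cidec (chromosome 6, 113424634 to 113435760) had 2, 3, 1 and 2 counts in control hearts and 10, 0 and 0 in transferred hearts. A lower level of Plin1, Lep or Cidec in transferred hearts was not detectable at this depth. The highest single value was 0.507 CPM, for Cidec in transferred heart 1. Cidec also overlaps the annotated gene Gm52871 on the other strand, so its few counts are uncertain. Pck1 (phosphoenolpyruvate carboxykinase, chromosome 2, 173153073 to 173159274) had 0, 3, 3 and 0 counts in control hearts and 8, 0 and 3 in transferred hearts. These 4 genes did not pass the filter on low counts, and no fold change is given for them.

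Other adipocyte markers were also scarce. Of the 10 markers listed for adipocytes, 8 were in the analysed table, and Plin1, Cidec, Lep, Slc7a10 (an amino acid transporter of white adipocytes) and Acvr1c had 0 counts in at least 1 heart. Without Aqp7, which heart muscle also expresses, the other 7 summed to 1.36 to 2.76 CPM in control hearts and to 0.988 to 6.23 CPM in transferred hearts. The highest sum was in transferred heart 1, where Car3 (carbonic anhydrase 3) reached 69 counts against 3 to 25 in control hearts. With Aqp7, a glycerol channel, the sum was 28.1 to 42.3 CPM in control hearts and 26.3 to 27.8 CPM in transferred hearts.

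**Figure D2:**
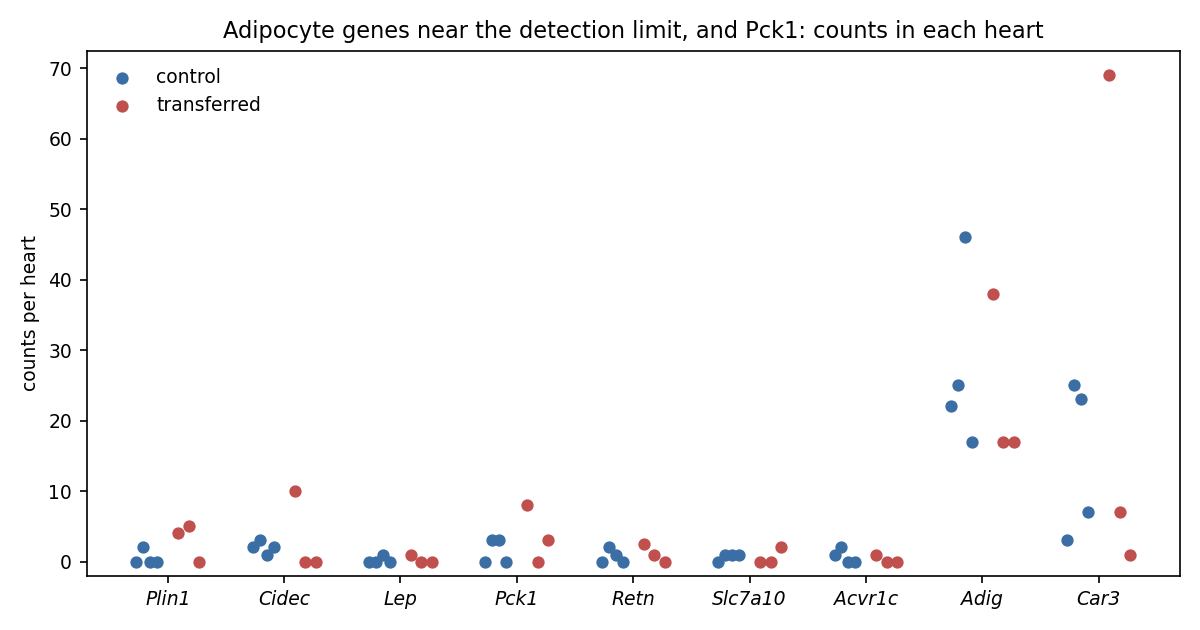
Raw counts per heart (y axis, linear) of Plin1, Cidec, Lep, Pck1, Retn, Slc7a10, Acvr1c, Adig and Car3 (x axis) in control (blue) and transferred (red) hearts. Apart from Adig and Car3, no gene exceeds 10 counts in any heart, beside column totals of at least 16402179 counts.

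Dgat2, which catalyses the last step of triglyceride synthesis, was the member most like Thrsp. It lies on chromosome 7 (99153663 to 99182713), 1765 kb from the start of Thrsp. Its level was 585, 563, 433 and 600 CPM in control hearts and 455, 411 and 413 CPM in transferred hearts. Transferred hearts lay below 3 of the 4 controls, and control heart 3 lay among them, so the groups overlapped. The means were 545 ± 76.2 CPM (SD, n = 4) and 426 ± 25.2 CPM (SD, n = 3), and the log2 fold change was -0.36 (SE 0.11). The transferred mean of Dgat2 was 78.2% of its control mean, against 46.1% for Thrsp. Divided by exon length, the log2 ratio of Thrsp to Dgat2 was -1.41 to -1.25 in control hearts and -2.15 to -2.02 in transferred hearts, so Thrsp was lower relative to Dgat2 in every transferred heart.

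Thrsp and Dgat2 also varied together between hearts of the same group, a measure that the choice of the genes did not use. After each group's mean log2 CPM was subtracted, their deviations had a Pearson r of 0.97 and a Spearman rho of 1 over the 7 hearts. Among 7003 genes with a mean of at least 1 CPM, Dgat2 ranked 2 in this likeness to Thrsp. Control heart 3 was the farthest below its group mean in both genes, by 0.39 on the log2 scale for Thrsp and 0.32 for Dgat2. Without it r was 0.96 and the rank 38, and over the 7 fits that each left out 1 heart r lay between 0.96 and 0.99 and the rank between 2 and 48. These values describe 7 hearts in which both genes come from the same libraries and share their depth. The other 4 of the 5 most like genes by this measure were Ralgapb, a subunit of a RAL GTPase-activating complex, Ino80b, a chromatin remodelling subunit, Gm30459, and Tns1 (tensin 1), with r of 0.98, 0.97, 0.97 and 0.96. In those 4 the log2 fold change between groups was -0.07, -0.06, -0.43 and -0.04, and the groups overlapped. For the remaining tested members the same r was 0.10 for Pparg, 0.03 for Elovl6, -0.07 for Mlxipl and -0.38 for Fabp4.

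**Figure D3:**
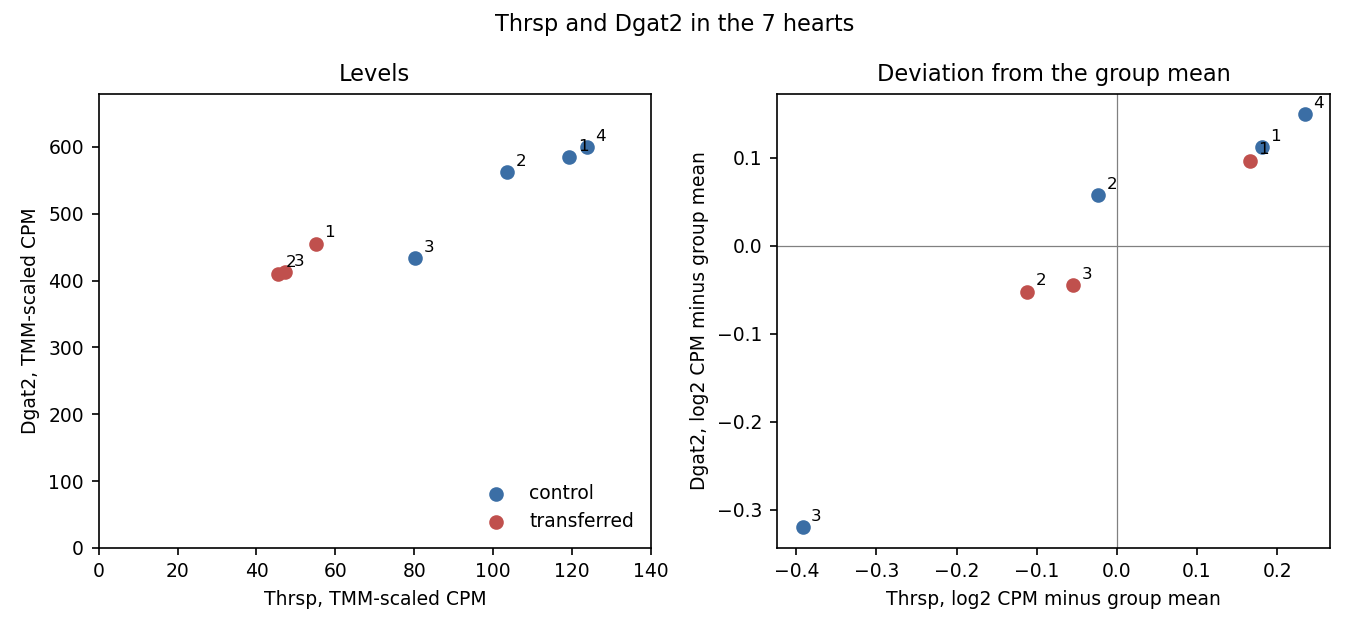
Left, TMM-scaled CPM of Dgat2 (y axis) against Thrsp (x axis) in each heart; right, log2 CPM of both genes after subtraction of the group mean, with numbers naming hearts. In the right panel the 7 hearts follow the same order in both genes (rho of 1), and control heart 3 lies far from the others.

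Fabp4, the fatty acid carrier, was the most abundant member and did not follow Thrsp. It lies on chromosome 3 (10204342 to 10208616). Its level was 1283, 1198, 1222 and 1095 CPM in control hearts and 1046, 1467 and 1099 CPM in transferred hearts, which overlapped. The log2 fold change was 0.01 (SE 0.12). Of 11 endothelial markers tested with edgeR, 0 passed the adjusted threshold, while 2 higher and 1 lower had an unadjusted p under 0.05 (7.17% and 5.27% of all tested genes). Vwf, a clotting protein of endothelium, was at 90.9 to 138 CPM in control hearts and 159 to 381 CPM in transferred hearts, higher without overlap. Tie1, an endothelial receptor, was at 221 to 251 CPM and 184 to 202 CPM, lower without overlap. Emcn, an endothelial surface protein, was the other higher marker, at 97.5 to 116 CPM and 110 to 145 CPM. The 11 markers summed to 6370 to 7445 CPM in control hearts and 6961 to 7929 CPM in transferred hearts, most of it Cd36, which heart muscle also expresses. The cell source of Fabp4 was not tested.

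The transcription factors Pparg and Mlxipl overlapped between groups. Pparg (chromosome 6, 115360879 to 115490404), the adipogenic nuclear receptor, was at 24.8, 30.3, 26.0 and 31.8 CPM in control hearts and 26.9, 34.1 and 22.4 CPM in transferred hearts. Its log2 fold change was -0.02 (SE 0.15), with transferred heart 2 the highest and transferred heart 3 the lowest of the 7. Mlxipl (chromosome 5, 135089890 to 135139768) was at 38.2, 36.2, 39.9 and 44.3 CPM in control hearts and 24.8, 25.3 and 52.7 CPM in transferred hearts. Transferred hearts 1 and 2 were below all controls and transferred heart 3 above all of them. The log2 fold change of Mlxipl was -0.21 (SE 0.25), and -0.66 without transferred heart 3, where it passed the adjusted threshold that it missed with all hearts. Without that heart 140 of all tested genes passed, against 18 with all hearts. The heart left out was the only transferred heart above the controls in Mlxipl, so a lower value without it was fixed by that split. Thrsp did not share this split, since transferred heart 3 had 47.2 CPM, between the other transferred hearts.

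Elovl6, the fatty acid elongase (chromosome 3, 129532386 to 129638495), was at 5.30, 3.79, 4.49 and 3.72 CPM in control hearts and 5.57, 4.75 and 5.83 CPM in transferred hearts. Its log2 fold change was 0.31 (SE 0.19), opposite in sign to that of Thrsp, and the groups overlapped. The gene overlaps the annotated Gm35986 on the other strand at its first bases. Of the 5 tested members other than Thrsp, 3 had a fold change below 0 and 2 above 0, and the groups overlapped in all 5.

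Levels can be compared between genes only per length. In CPM per kilobase of exon, the control means were 1345 for Fabp4, 242 for Dgat2, 96.8 for Thrsp, 7.55 for Pparg, 7.09 for Mlxipl and 0.727 for Elovl6. The transferred means followed the same order, at 1350, 189, 44.7, 7.44, 6.13 and 0.905. Pparg and Mlxipl did not differ beyond their spread, with control SDs of 0.896 and 0.620. Cidec, Pck1, Plin1 and Lep had means of at most 0.096 in either group. Within groups Thrsp varied more than most genes, with a pooled SD of 0.24 in log2 CPM against a median of 0.18 over tested genes. The SD of Mlxipl was 0.40, most of it from the transferred hearts.

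The wider pathway was described with 146 further genes in 6 lists, of which 79 were in the analysed part of the table and 68 were tested. None passed the adjusted threshold of edgeR's quasi-likelihood test in either direction, against 0.235% of all tested genes. At an unadjusted p under 0.05 there were 5 higher and 7 lower, where 7.17% and 5.27% of all tested genes stood. With DESeq2, 1 listed gene passed, Ppargc1a, where 252 of all 7667 tested genes passed. With limma-voom 0 listed genes and 0 of all tested genes passed. The median log2 fold change of the 68 genes was -0.01. Listed genes outside the analysed part of the table were not seen, so these counts do not cover whole pathways.

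Of 25 genes listed for fatty acid synthesis and elongation, 7 were in the analysed part of the table, and all 7 were tested. Of these 7, 0 passed in either direction, 2 had a fold change above 0 and 5 below 0. The other listed genes were not seen, so the pathway was covered only in part. Elovl1, an elongase of very long chains, was at 49.2 to 54.1 CPM in control hearts and 55.6 to 68.0 CPM in transferred hearts, without overlap. Its log2 fold change was 0.22 (SE 0.09, edgeR adjusted p = 0.355). Mecr, a reductase of mitochondrial fatty acid synthesis, averaged 50.6 ± 1.33 CPM (SD, n = 4) in control hearts. In transferred hearts it averaged 45.6 ± 2.16 CPM (SD, n = 3), also without overlap. Acsl3, which activates fatty acids for lipid synthesis, had a log2 fold change of -0.22 (SE 0.12). Acacb, the acetyl-CoA carboxylase isoform of heart that restrains fatty acid burning, was at 671 to 937 CPM in control hearts and 634 to 798 CPM in transferred hearts. It followed Thrsp within groups, with r of 0.94 and rank 21 among 7003 genes. Control heart 3 was the lowest control in both Acacb and Thrsp, and r without that heart was not computed for Acacb.

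Of 13 tested genes of triglyceride synthesis and lipid droplets (28 were listed), 0 passed in either direction. Among them 11 had a fold change below 0 and 2 above 0, with a median log2 fold change of -0.06. Agpat2, which adds the second fatty acid on the way to triglyceride, was at 127, 129, 122 and 132 CPM in control hearts and 116, 110 and 113 CPM in transferred hearts. Those groups did not overlap, but the log2 fold change was -0.17 (SE 0.07, edgeR adjusted p = 0.325). Pnpla2, the triglyceride lipase, averaged 899 ± 117 CPM (SD, n = 4) in control hearts and 748 ± 96.3 CPM (SD, n = 3) in transferred hearts, with a log2 fold change of -0.27. G0s2, an inhibitor of that lipase, had a log2 fold change of 0.38 (SE 0.17, edgeR adjusted p = 0.398). Its transferred values ranged from 59.5 to 108 CPM and enclosed all controls.

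Among 9 tested adipocyte genes outside the members, 0 passed, with 5 fold changes above 0 and 4 below. The groups did not overlap in 1 of them, Cebpa, an adipogenic transcription factor, at 9.04 to 12.8 CPM in control hearts and 13.3 to 14.1 CPM in transferred hearts. Its log2 fold change was 0.30 (SE 0.14, edgeR adjusted p = 0.424). Mest, an imprinted gene linked to fat cell size, had a log2 fold change of -0.64 (SE 0.23, edgeR adjusted p = 0.301). Aqp7 was at 40.9, 25.6, 32.3 and 27.8 CPM in control hearts and 20.6, 26.4 and 25.3 CPM in transferred hearts, with a log2 fold change of -0.39. Rarres2 (chemerin, a secreted protein) was at 50.6 to 67.7 CPM in control hearts and 64.5 to 78.8 CPM in transferred hearts, a log2 fold change of 0.27.

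The lipogenic regulators did not share a direction. Of 21 tested (27 were listed), 11 had a fold change above 0 and 10 below, and 0 passed. Ppargc1a (PGC-1alpha, the coactivator of mitochondrial biogenesis) was at 207, 199, 206 and 206 CPM in control hearts and 233, 307 and 255 CPM in transferred hearts, without overlap. Its log2 fold change was 0.37 (SE 0.09, edgeR adjusted p = 0.143). Over the alternatives its adjusted p ranged from 0.0199, with DESeq2, to 0.481. Mlxip, the relative of Mlxipl that is abundant in muscle, had a log2 fold change of -0.23 (SE 0.10). Nr1h3 (LXR alpha), a sterol-sensing activator of lipogenesis, had one of 0.28 (SE 0.15).

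**Figure D4:**
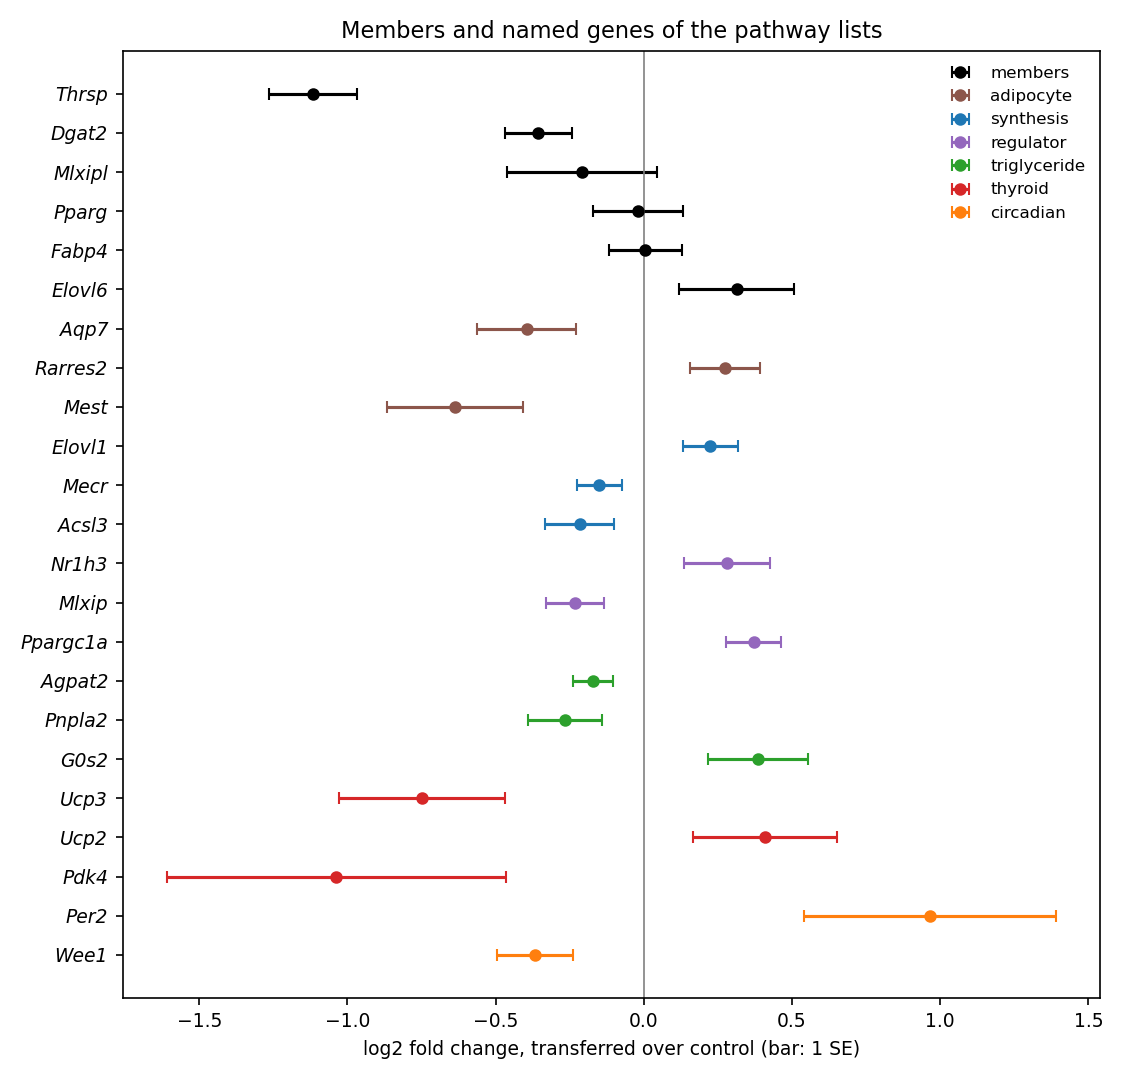
Log2 fold change, transferred over control (x axis), with bars of 1 standard error from edgeR, for the 6 tested members (black) and the genes named from each pathway list (colours). Thrsp lies at -1.11, Dgat2 at -0.36, and Fabp4 and Pparg at 0.01 and -0.02.

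Of 21 genes listed for thyroid hormone handling and targets, 9 were in the analysed part of the table, 6 were tested and 0 passed. Dio1, a deiodinase, had 1 count over all hearts, and Crym, a thyroid hormone binder, had at most 3 in a heart. Ucp3, a mitochondrial uncoupling protein, was at 49.9, 64.4, 41.5 and 55.5 CPM in control hearts and 39.9, 17.3 and 37.2 CPM in transferred hearts, without overlap. Its log2 fold change was -0.75 (SE 0.28, edgeR adjusted p = 0.325). Atp2a2, the calcium pump, had one of -0.08 (SE 0.11), and Ucp2 one of 0.41 (SE 0.24). Pdk4, a switch from glucose to fat use, was at 409, 1567, 375 and 1202 CPM in control hearts and 455, 366 and 477 CPM in transferred hearts. Control hearts 2 and 4, high in Pdk4, had 104 and 124 CPM of Thrsp, and control hearts 1 and 3, low in Pdk4, had 119 and 80.2 CPM.

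Thrsp varies with the time of day in other tissues, and clock genes varied between these hearts. Dbp, a clock output factor, was at 19.8, 19.3, 95.9 and 16.7 CPM in control hearts and 47.5, 178 and 52.8 CPM in transferred hearts. The control heart and the transferred heart highest in Dbp, hearts 3 and 2, were also the lowest in Thrsp of their groups. Of 12 clock genes tested 0 passed. Wee1, a cell cycle kinase under clock control, had every transferred heart below every control, and its log2 fold change was -0.37 (SE 0.13, edgeR adjusted p = 0.287). Per2, a core clock repressor, was at 3.31 to 5.80 CPM in control hearts and 4.25 to 16.5 CPM in transferred hearts. Without the 2 hearts highest in Dbp, a choice made after the values were seen, Thrsp was at 104 to 124 CPM in 3 control hearts and 47.2 to 55.1 CPM in 2 transferred hearts, a log2 fold change of -1.17. In the same hearts Dgat2 was at 563 to 600 CPM and 413 to 455 CPM, with a log2 fold change of -0.42. Its edgeR adjusted p was 0.294, against 0.243 with all hearts. These groups did not overlap, but control heart 3, at 433 CPM, had been the only overlapping control, so leaving it out fixed that outcome. The transferred hearts that remained, at 47.5 and 52.8 CPM of Dbp, were still above those controls, at 16.7 to 19.8 CPM, and the part of sampling time was not tested.

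Over all 7 hearts, group difference included, the genes most like Thrsp were Aamdc, Cdh4, Agpat2, Aqp1 and Dhrs3, with r of 0.99, 0.98, 0.98, 0.98 and 0.97 among 7003 genes. All 5 had every transferred heart below every control, which this measure selects for. Aqp1 is the water channel of capillary endothelium, Cdh4 a cadherin, and Dhrs3 an enzyme that reduces retinal. Agpat2 is the triglyceride enzyme described above. Aqp1 was at 727 to 960 CPM in control hearts and 355 to 489 CPM in transferred hearts, and Cdh4 at 16.7 to 22.6 CPM and 10.1 to 11.0 CPM. Aamdc, named for its link to fat cell formation, lies on chromosome 7 with its start 162 kb from that of Thrsp. Its level was 99.4, 97.7, 88.5 and 100.2 CPM in control hearts and 79.2, 74.9 and 79.3 CPM in transferred hearts, at a log2 fold change of -0.31 (SE 0.07).

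The other genes around Thrsp did not share its difference. Of 12 tested genes with a start within 500 kb, 0 passed the adjusted threshold, and the median log2 fold change was -0.01. Aamdc was the 1 gene lower without overlap, and Pak1, a kinase, was the 1 gene higher without overlap, where the log2 fold change was 0.44 (edgeR adjusted p = 0.325). Over all tested genes 5.22% were lower and 5.99% higher without overlap, not far from 1 of 12 each way. Ndufc2, a subunit of respiratory complex I whose start is 17.5 kb from that of Thrsp, was at 332 to 366 CPM in control hearts and 332 to 348 CPM in transferred hearts. The lowest neighbour was Aqp11 at -0.43 (SE 0.28).

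**Figure D5:**
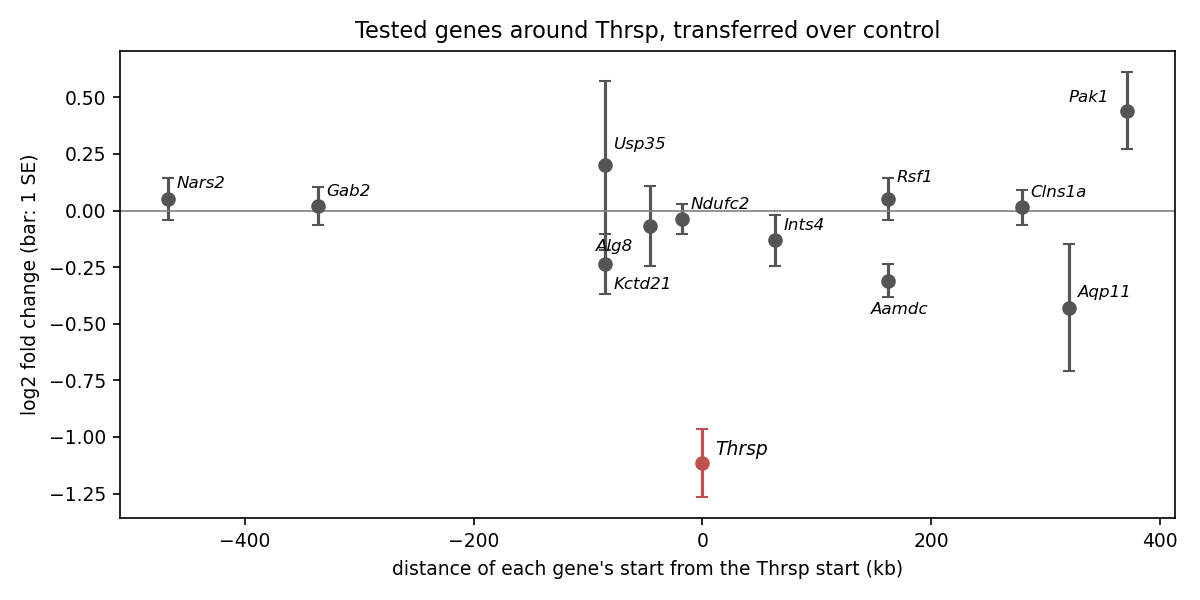
Log2 fold change, transferred over control (y axis, bars of 1 standard error), of tested genes by the distance of their start from that of Thrsp in kb (x axis). Thrsp lies at -1.11, and the 12 neighbours lie between -0.43 and 0.44.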

How the data were processed

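The authors deposited estimated counts per gene for 7 hearts. Per the submitters' processing notes, cutadapt 2.5, STAR 2.7.2b, featureCounts 1.6.4 and build GRCm38.p6 were named, while the counting options are not given in the sources used here. There were 20343 usable genes, and 1 truncated line was dropped. Of the values 4.63% were fractional and were rounded. Genes on the rest of the genome are not analysed here.

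Groups came from the treatment label, and replicate numbers from accession order. Each heart has its own identifier in the labels. Same-group libraries differed by a chi-square of 17.4 to 77.2 per degree of freedom over 9 pairs. Genes passing filterByExpr (7667) were scaled by TMM and tested with edgeR 4.0.16 (quasi-likelihood, robust; R 4.3.3), with Benjamini-Hochberg adjustment over all tested genes and a threshold of 0.05. CPM is TMM-scaled. Likeness used log2 CPM with a prior count of 2. DESeq2 1.42.0 and limma 3.58.1 (voom), other scalings and filters, a covariate for the letter prefix of the animal identifiers, and left-out hearts were alternatives. On simulated counts for 7580 genes, 93% of genes changed by 1 on the log2 scale were recovered.

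The members and gene lists were chosen with earlier results of these data known. Named genes were the members, the 3 genes with the smallest p in each list and any past the threshold, and the 5 genes most like Thrsp by each measure; 1 gene so chosen is not reported here. Others (Acacb, Atp2a2, Car3, Cebpa, Crym, Dbp, Dio1, markers and neighbours) were named after their values were seen.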

Additional observations from a re-analysis of the deposited data

Results flagged for a closer look

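In the control group of 4, each of 32 genes was checked for a heart far from the other 3. Chance marks about 1 in 20 such groups, or 1.6 here, and 2 were marked. Ppargc1a was at 199 CPM in control heart 2, against 206 to 207 CPM in the other controls, a small step beside their narrow range. Pnpla2 was at 723 CPM in control heart 3, against 948 to 968 CPM in the others, and this was also the control heart lowest in Thrsp and Dgat2. Of 15 members and listed genes under the filter on low counts, 1, Cyp2e1, separated the groups upward. Over all tested genes 5.99% were higher without overlap, a share near 1 of 15. Cyp2e1, a cytochrome P450, had 17, 15 and 7 counts after transfer, 39 in sum, and 1, 6, 2 and 5 in controls, 14 in sum.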

How the results depend on the processing

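Thrsp kept a log2 fold change between -1.23 and -1.04 over 18 alternatives, and Dgat2 between -0.45 and -0.31. Neither moved by more than its within-group SD. Thrsp passed an adjusted p of 0.05 in 11 of the 18, and not with limma-voom, the prefix covariate, the 5 hearts without a letter prefix, or without control heart 1, 2 or 4 or transferred heart 2. Elovl6 stayed above 0 (0.25 to 0.43), Mlxipl below 0 (-0.66 to -0.022), and Fabp4 (-0.16 to 0.14) and Pparg (-0.23 to 0.11) lay on both sides of 0. Mlxipl at -0.66 without transferred heart 3 was the 1 member value that moved by more than that SD. Without that heart 140 of all tested genes passed the threshold, Mlxipl among them. Leave-one-out fits of Mlxipl gave -0.66 to -0.022.

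Against 18 genes called, total count scaling gave 35 (26 higher, 9 lower), all genes with at least 1 count 81 (66 higher, 15 lower), and DESeq2 252 (192 higher, 60 lower). Limma-voom, the prefix covariate and the hearts without a prefix gave 0 each, with 907, 973 and 1054 genes at an unadjusted p under 0.05. Leaving out the heart highest in Dbp of each group, chosen after seeing the data, gave 3. Fits that left out 1 heart gave from 0 to 140. They gave 0 without control heart 1, 2 or 4 or transferred heart 2, 1 without control heart 3 and 140 without transferred heart 3. For these counts the cause was not tested. Against 0 listed genes, DESeq2 gave 1 (Ppargc1a). Leaving out the hearts highest in Dbp gave 1, Dbp itself, whose extreme values chose the hearts left out. By Spearman's rho, 0 of the 5 genes most like Thrsp over 7 hearts and 1 of the 5 within groups were shared. No paired analysis was possible because the titles of the groups share fewer than 2 replicate numbers.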

Other observations

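Irs2, the insulin receptor substrate that responds to feeding state in liver, varied widely between hearts of the same group. It was at 23.4, 221, 98.9 and 43.5 CPM in control hearts and 148, 29.0 and 86.1 CPM in transferred hearts, a log2 fold change of -0.15 (SE 0.87). Bhlhe40, a clock-linked repressor, was at 74.6, 208, 266 and 117 CPM in control hearts and 205 to 228 CPM in transferred hearts. Upk3b, a marker of the mesothelium that covers the heart, was at 25.8, 0.129, 14.0 and 14.7 CPM in control hearts and 12.97, 5.55 and 0.692 CPM in transferred hearts. Control heart 2, nearly without Upk3b, had 104 CPM of Thrsp. In that heart the mesothelial markers Lrrn4 and Bnc1 had 0 counts, while a further one, Wt1, was at 13.9 CPM. Of these 4 markers, 3 had a fold change below 0 and 1, Wt1, above 0 (log2 0.22, SE 0.21). The 4 summed to 14.1 to 42.2 CPM in control hearts and 22.5 to 30.7 CPM in transferred hearts. These genes were chosen after their values were seen.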
